A study of Mus musculus with 4 samples.

Results

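The 10 genes described here encode the subunits of Polycomb repressive complex 2 (PRC2). They are Ezh1, Ezh2, Eed, Suz12, Rbbp4 and Rbbp7 of the core complex and Jarid2, Aebp2, Mtf2 and Phf19 of its accessory subunits. They were chosen by symbol, and all 10 were found among the 32285 genes listed in each library. The data come from single-cell RNA-Seq (scRNA-Seq) of whole digested kidneys of male C3H mice, with 1 library per condition (4 libraries in all). WT mice carried intact SGLT2, the glucose cotransporter of the early proximal tubule, and SP mice carried a homozygous missense mutation of its gene, Slc5a2, in every tissue. Mice of each genotype received a normal diet (ND) or a high-fat diet (HFD, 60% of calories from fat) for 8 weeks from 10 weeks of age, and kidneys were taken at 18 weeks. The conditions are called WT-ND and WT-HFD for WT mice and SP-ND and SP-HFD for SP mice, values of the 4 libraries follow that order throughout, and the number of animals behind each library is not given in the sources used here.

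PRC2 is the methyltransferase that places methyl groups on lysine 27 of histone H3 (H3K27), with S-adenosylmethionine as the donor, and the fully methylated form marks silenced genes. Each complex holds 1 catalytic subunit, EZH2 or its paralog EZH1, together with EED, which reads the finished mark, SUZ12, the scaffold, and a histone chaperone, RBBP4 or RBBP7. EZH2 is known for high levels in dividing cells, and EZH1 persists in cells that have left the cell cycle. Accessory subunits sort the core into different sub-complexes. MTF2 and PHF19 belong to PRC2.1 and help the core to bind chromatin at CpG-rich DNA, and JARID2 and AEBP2 belong to PRC2.2, which recognises ubiquitinated histone H2A.

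The sequence that precedes the start of a gene was read for all 10 members from RefSeq (GRCm38.p6), in 14 promoter entries. The windows of 150 bases before the start that RefSeq annotates are printed below for 4 core members and for Ezh1. These 4 core members had higher levels in cycling macrophage- or dendritic-like cells (described later). Ezh1, the paralog of Ezh2 for which such a difference could not be resolved, is printed for contrast. Capitals mark CCAAT on either strand (CCAAT or ATTGG) and the letters GGCGGGA on either strand (GGCGGGA or TCCCGCC), which resemble a site for E2F factors, and the match positions do not overlap each other. Each line runs 5′ to 3′ on the strand of the gene. The RefSeq start of Ezh2 lies inside the gene as GENCODE draws it (coordinates further on), so that the Ezh2 window precedes the RefSeq start and not the GENCODE one.
Ezh2 (chr6:47595031-47595180, minus strand): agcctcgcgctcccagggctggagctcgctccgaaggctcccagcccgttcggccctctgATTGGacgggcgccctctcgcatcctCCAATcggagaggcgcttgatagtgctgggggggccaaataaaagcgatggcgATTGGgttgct
Suz12 (chr11:79992956-79993105, plus strand): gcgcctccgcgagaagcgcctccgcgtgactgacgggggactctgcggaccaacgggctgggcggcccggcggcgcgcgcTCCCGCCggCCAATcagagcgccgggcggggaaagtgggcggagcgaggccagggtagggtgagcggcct
Rbbp4 (chr4:129335371-129335520, minus strand): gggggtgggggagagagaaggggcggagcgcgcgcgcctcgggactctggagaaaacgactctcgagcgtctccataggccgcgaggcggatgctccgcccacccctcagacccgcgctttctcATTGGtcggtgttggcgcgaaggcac
Rbbp7 (chrX:162760222-162760371, plus strand): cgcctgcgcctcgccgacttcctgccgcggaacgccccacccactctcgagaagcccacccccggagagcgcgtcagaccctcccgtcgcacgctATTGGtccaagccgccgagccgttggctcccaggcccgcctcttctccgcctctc
Ezh1 (chr11:101226464-101226613, minus strand): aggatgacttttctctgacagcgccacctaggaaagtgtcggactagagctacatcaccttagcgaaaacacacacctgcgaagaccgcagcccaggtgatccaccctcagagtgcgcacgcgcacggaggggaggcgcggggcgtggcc
The Ezh2 window held CCAAT at 3 places, the Suz12 window held CCAAT and the E2F-like letters, and the windows of Rbbp4 and Rbbp7 each held CCAAT. Neither set of letters was in the Ezh1 window, nor in that of Eed, a core member that is not printed. CCAAT was in 24.5% and GGCGGGA in 7.40% of 32851 RefSeq promoters cut to the same length, and in 5 and 3 of the 14 windows of the members. The windows with GGCGGGA were those of Suz12 and 1 window each of Jarid2 and Aebp2, and the CCAAT window not printed was one of Mtf2. A match of letters is a description of the sequence and not a bound site. The printed windows were picked by levels in these data, and a link of the letters with cycling was not tested.

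The 4 libraries held 90728590 to 115117649 unique molecular identifiers (UMIs) over 13229 to 16385 barcodes, and 379 of 58280 distinct barcodes (0.650%) occurred in more than 1 library. Of the barcodes, 32.7% to 49.8% had at least 50% mitochondrial UMIs and were left out. The 32280 cells that were kept formed 32 clusters, named from marker genes, and 13 classes had at least 100 cells in every library. Names carry the suffix "-like" where they are first given below, since they rest on markers alone. Slc5a2 was measured at 296 and 237 counts per 1000000 UMIs (CPM) in proximal tubule-like cells of WT-ND and WT-HFD, and at 41.8 and 85.9 CPM in those of SP-ND and SP-HFD. A level is the number of UMIs of a gene pooled over the cells of a class in a library, per 1000000 UMIs of that class. Libraries are 3′ tag libraries, so CPM is a molecule count that does not grow with transcript length. No condition was replicated, so nothing was tested between libraries: every interval is an exact 95% interval that covers counting error only, and condition and library cannot be told apart.

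All members other than Phf19 were measured in every class, at very different depths. Over the kept cells, Rbbp7 had the most UMIs (14808), followed by Rbbp4 (11309), Suz12 (8679), Jarid2 (8121), Aebp2 (7553), Ezh1 (5688), Mtf2 (3697), Eed (2833) and Ezh2 (2025). Phf19 had 31 UMIs, of which 11 were in macrophage- or dendritic-like cells, and no ratio between conditions is given for it. The Phf19 level in those cells was 1.95, 1.14, 1.62 and 2.72 CPM in the 4 libraries. In proximal tubule cells Phf19 had 1 UMI in WT-HFD and none in the other libraries, where 0 UMIs allow a level of up to 0.145, 0.233 and 0.390 CPM in WT-ND, SP-ND and SP-HFD.

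Coordinates of the members are given on GRCm38, the mm10 build of the labels. Ezh2 (chr6:47530139-47595341, minus strand) and Aebp2 (chr6:140622663-140678472, plus strand) share chromosome 6, and Ezh1 (chr11:101191115-101226463, minus strand) and Suz12 (chr11:79993106-80034123, plus strand) share chromosome 11. Jarid2 lies at chr13:44729474-44921643, plus strand, Eed at chr7:89954654-89980983, minus strand, and Mtf2 at chr5:108065674-108109004, plus strand. Rbbp4 lies at chr4:129307100-129335370, minus strand, Rbbp7 at chrX:162760402-162779092, plus strand, and Phf19 at chr2:34893757-34914026, minus strand. Eed, Rbbp4, Rbbp7, Mtf2 and Phf19 overlap an annotated gene on the opposite strand, and no member overlaps another gene on its own strand.

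The catalytic subunits were spread over the cell classes in different ways. Ezh2 had its highest levels in macrophage- or dendritic-like cells, at 49.8, 37.6, 25.1 and 39.7 CPM in the 4 libraries. This class is called macrophages for short below, although it also takes in dendritic-like cells. T or NK cell-like cells had 17.4, 38.8, 37.2 and 39.6 CPM of Ezh2, so that the 2 classes changed places between libraries and overlapped. The next class was an epithelial one: type A intercalated cell-like cells, the acid-secreting cells of the collecting duct, held 24.1, 17.1, 24.6 and 16.8 CPM of Ezh2. Thick ascending limb-like cells had 14.6, 9.59, 13.6 and 11.7 CPM. At the low end were proximal tubule cells, with 4.60, 4.10, 4.73 and 4.29 CPM, and podocyte-like cells, with 0.98, 0.86, 2.01 and 0.48 CPM from 2, 2, 4 and 1 UMIs. The median Ezh2 level over the libraries differed by 41.98-fold between the highest and the lowest class, against 2.17-fold (Suz12) to 3.61-fold (Ezh1) for the other members compared. The ratio of macrophage to proximal tubule Ezh2 was 3.44, 3.19, 2.41 and 3.21 on the log2 scale, and that of podocyte to proximal tubule Ezh2 was −2.23, −2.26, −1.23 and −3.15. The podocyte interval included 0 in SP-ND and lay below 0 in the other 3 libraries. A cluster of 589 cells that matched the proximal tubule best, but too weakly for a name, is not in that class. It held 8.57, 12.9 and 12.3 CPM of Ezh2 in WT-ND, WT-HFD and SP-ND. In WT-HFD its log2 ratio of Ezh2 to proximal tubule cells was 1.65 (0.83 to 2.42), from 19 UMIs. Ezh1, Rbbp4 and Mtf2 were also higher in it there, and the intervals of the other members compared included 0. Over the 4 libraries, cells of this cluster had a median of 21.6% mitochondrial UMIs, against 34.0% in proximal tubule cells. The part of this in the ratios of the cluster was not tested.

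Ezh1 had its highest levels in endothelial cell-like and thin limb-like cells. Endothelial cells held 61.1, 55.4, 57.3 and 56.8 CPM, and thin limb cells held 58.3, 47.7, 60.7 and 49.3 CPM. These 2 classes overlapped, and all 4 values of thin limb cells were above those of the class that followed, the principal cell-like cells of the collecting duct (35.0 to 41.8 CPM). Podocytes, where Ezh2 was lowest, had 41.8, 34.7, 34.2 and 33.3 CPM of Ezh1. Proximal tubule cells held 23.6, 17.6, 20.6 and 14.8 CPM. Macrophages, at the top for Ezh2, had the lowest class median of Ezh1, with 15.6, 15.9, 15.4 and 16.9 CPM. They were the lowest class in 0 of the 4 libraries, however, and T or NK cells were lowest in 2. Neighbouring classes in the order of medians overlapped in 11 of 12 cases for Ezh1 and in 10 of 12 for Ezh2.

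**Figure D1:**
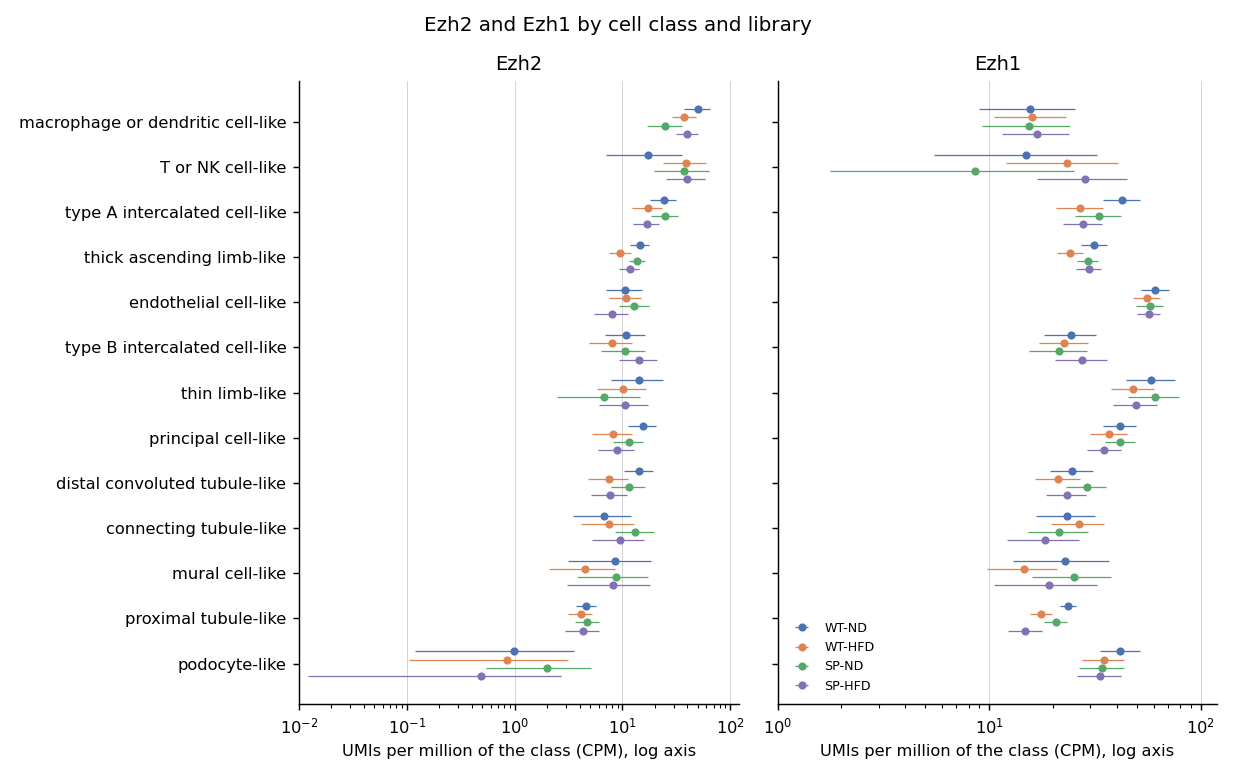
Levels of Ezh2 (left) and Ezh1 (right) in 13 cell classes, in CPM of the class on a log axis, with 1 point per library and exact Poisson 95% intervals of counting error. Ezh2 spans from 49.8 CPM in macrophages of WT-ND to 0.48 CPM in podocytes of SP-HFD, while Ezh1 is highest in endothelial and thin limb cells.

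The share of Ezh1 among the UMIs of both catalytic genes therefore ran over much of the scale. Its lowest, median and highest values over the libraries were 23.9%, 29.8% and 38.0% in macrophages and 18.8%, 39.7% and 46.2% in T or NK cells. By count, Ezh1 was the minority transcript in every library of these 2 immune classes, and held more than the Ezh2 share in every library of the other 11 classes. In T or NK cells Ezh1 had 6 of 13, 12 of 32, 3 of 16 and 18 of 43 UMIs, and only the SP-ND interval excluded an even split. Intervals also included an even split in macrophages of SP-ND and in some libraries of connecting tubule, mural and type A intercalated cells. The share was 57.3%, 61.7% and 63.8% in type A intercalated cells, 77.6%, 81.2% and 83.7% in proximal tubule cells, 81.7%, 84.5% and 87.7% in endothelial cells, and 94.4%, 97.6% and 98.6% in podocytes. Over all kept cells it was 71.97% to 75.5%.

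Suz12, the scaffold, was spread most evenly. Its levels in the 4 libraries were 62.0, 87.3, 100.04 and 63.3 CPM in T or NK cells, 71.7, 63.9, 78.6 and 72.7 CPM in endothelial cells and 34.4, 27.2, 41.0 and 35.9 CPM in proximal tubule cells. Every neighbouring pair of classes overlapped in the order of Suz12 medians. Eed, the subunit that binds methylated H3K27, was at 25.4, 30.2, 29.1 and 36.4 CPM in macrophages, 27.3, 31.1, 22.9 and 26.9 CPM in T or NK cells, and 10.8, 10.7, 11.7 and 10.8 CPM in proximal tubule cells. The Eed values of macrophages were all above those of proximal tubule cells, although each neighbouring pair of classes between them overlapped.

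The histone chaperones Rbbp4 and Rbbp7, which also serve other chromatin complexes, had their highest class medians in podocytes. Podocytes were the top class in 4 libraries for Rbbp7 and in 2 for Rbbp4. Rbbp7 in podocytes was at 151, 172, 153 and 175 CPM, above 143, 110, 111 and 118 CPM in type A intercalated cells and 45.5, 48.4, 53.4 and 50.2 CPM in proximal tubule cells. The podocyte median was 3.29-fold that of the proximal tubule, and the log2 ratio was 1.73, 1.83, 1.52 and 1.80. Rbbp4 held 105, 105, 75.9 and 90.8 CPM in podocytes, 86.8, 83.5, 94.3 and 82.3 CPM in T or NK cells and 39.2, 42.9, 48.3 and 42.4 CPM in proximal tubule cells. Podocytes and T or NK cells thus overlapped for Rbbp4. Endothelial cells (75.7 to 93.2 CPM), thin limb cells (67.5 to 94.3 CPM) and mural cell-like cells (53.3 to 83.9 CPM) overlapped podocytes as well. The share of Rbbp7 among the UMIs of both chaperones was 41.95% to 49.7% in endothelial cells, 52.5% to 54.2% in proximal tubule cells and 59.0% to 66.8% in podocytes, and these 3 ranges did not overlap.

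Accessory subunits differed in where they peaked. Jarid2, the PRC2.2 subunit with a catalytically inactive Jumonji domain, was at 81.1, 89.4, 94.6 and 70.7 CPM in macrophages. Distal convoluted tubule-like cells were close, with 83.6, 71.5, 85.3 and 68.5 CPM, as were connecting tubule-like cells, with 86.2, 57.3, 78.1 and 82.9 CPM, and podocytes, with 71.2, 66.0, 77.9 and 69.5 CPM. Thick ascending limb cells, which lie just upstream of the distal convoluted tubule, had 29.6, 25.7, 28.0 and 32.4 CPM of Jarid2, and proximal tubule cells 22.9, 26.4, 30.1 and 38.5 CPM. Aebp2, a zinc finger subunit of PRC2.2, was at 69.5, 103, 94.3 and 79.2 CPM in T or NK cells and at 79.4, 80.1, 80.5 and 71.0 CPM in endothelial cells. The other 11 classes held 25.3 to 50.1 CPM of Aebp2, and proximal tubule cells were near the low end with 31.3, 26.0, 31.0 and 30.6 CPM. Mtf2, the PRC2.1 subunit that binds CpG-rich DNA, was also highest in T or NK cells (37.2, 34.9, 31.4 and 31.7 CPM) and endothelial cells (34.8, 38.6, 31.3 and 31.4 CPM) and stood at 13.0, 9.55, 14.0 and 10.8 CPM in the proximal tubule.

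**Figure D2:**
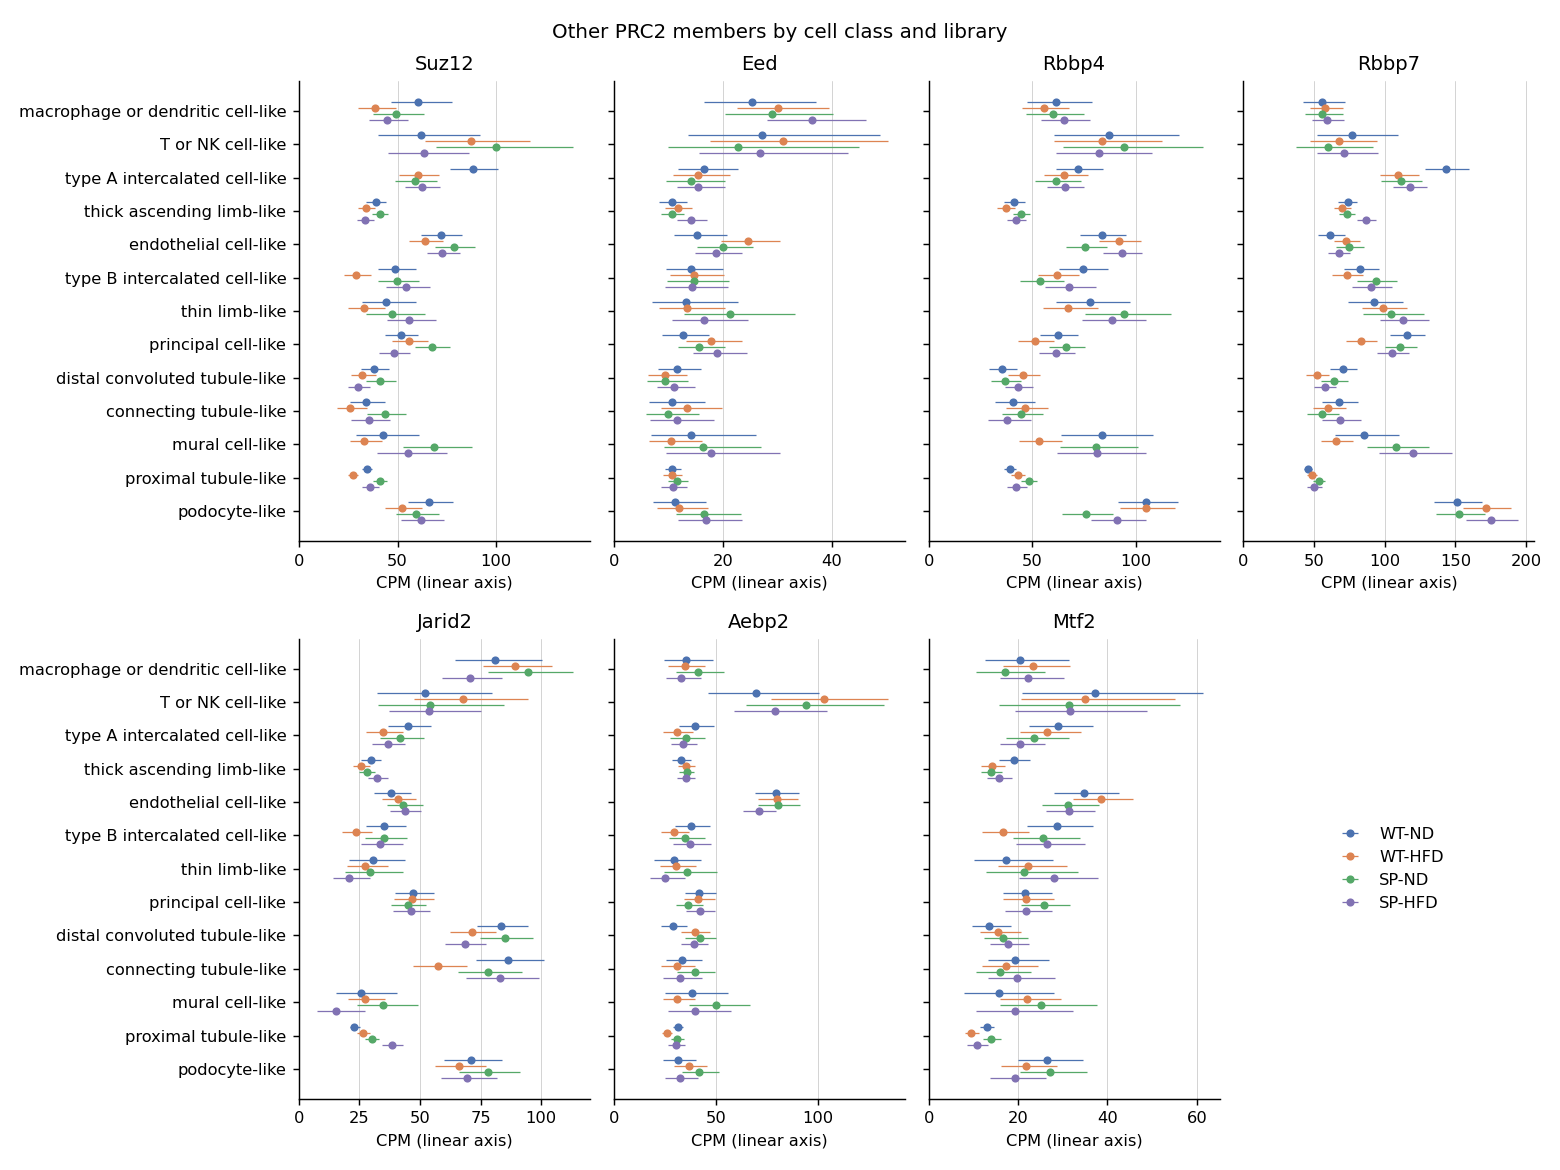
Levels of the other 7 members compared, in CPM of the class on linear axes, by cell class (ordered as for Ezh2) with 1 point per library and exact Poisson 95% intervals. Rbbp7 is highest in podocytes (151 to 175 CPM), Aebp2 and Mtf2 in T or NK and endothelial cells, and Jarid2 in macrophages and distal tubule classes.

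The balance of accessory subunits was summed as the UMIs of Jarid2 and Aebp2 (PRC2.2) in percent of these plus Mtf2, Phf19 and Phf1 (PRC2.1, where PHF1 is the paralog of MTF2 and PHF19). This PRC2.2 share was 48.3% to 59.6% in thin limb cells and 62.5% to 64.3% in endothelial cells. It was 71.4%, 73.7%, 73.0% and 77.7% in the proximal tubule cells of the 4 libraries. The distal convoluted tubule held the highest shares, 84.6% and 84.7% in the ND libraries and 78.6% and 78.7% in the HFD libraries of WT and SP. In that class the share was lower in both HFD libraries, where Phf1, which is no member, was at 14.7 and 11.4 CPM against 6.94 and 6.27 CPM in the ND libraries of WT and SP.

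Free RNA and mitochondrial RNA differed between the classes set side by side here. Mitochondrial genes made up 32.4% to 37.6% of the UMIs in proximal tubule cells, 8.7% to 13.0% in podocytes, 9.4% to 13.7% in macrophages and 8.4% to 12.9% in T or NK cells. A gene at the same share of nuclear-encoded UMIs thus had fewer CPM in the proximal tubule than in those classes. Taken over nuclear-encoded UMIs alone, the Rbbp7 ratio of podocytes to proximal tubule cells was 2.49-fold and the Aebp2 ratio of T or NK cells to proximal tubule cells was 2.11-fold instead of 2.82-fold. Markers of the proximal tubule reached 2.06% to 7.46% of their own level in podocytes and 3.08% to 13.1% in macrophages, whereas macrophage markers reached 0.04% to 0.16% of their own level in podocytes.

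In 3 of 4 libraries most Ezh2 UMIs of macrophages came from cells with UMIs of cell-cycle genes. Cells were called cycling when at least 3 of 18 cell-cycle genes (Mki67, Top2a, Cdk1, Pcna, Mcm2 and others, none of them a member) had a UMI, which 632 of 32280 kept cells (2.0%) met. Among macrophages 124 of 1461 cells (8.5%) met it, at 8.6%, 9.3%, 5.6% and 9.7% in the 4 libraries. Cycling macrophages were deeper than the others, with a median of 6860.5 against 3381 UMIs per cell, and CPM takes that depth out of the level but not out of the call. At a resolution of 1.0, a cluster of 286 cells led by Cd209a, Xcr1, Ube2c and Top2a stood apart from 770 cells led by C1qa. Cycling and other cells of the class may thus differ in their mix of macrophages and dendritic cells. The part of this in the ratios below was not tested. Ezh2 was at 178, 134, 91.4 and 140 CPM in cycling macrophages and at 20.4, 16.0, 18.6 and 18.4 CPM in the remaining ones. The ratio was 3.13 (95% interval 2.25 to 4.06), 3.06 (2.30 to 3.86), 2.30 (1.05 to 3.44) and 2.92 (2.21 to 3.66) on the log2 scale, higher in the cycling cells of 4 of 4 libraries. Cycling cells held 66.7%, 65.2%, 32.3% and 61.6% of the macrophage Ezh2 UMIs. With cells of at least 3000 UMIs on both sides the log2 ratio was 3.42, 3.13, 2.22 and 3.23, a limit chosen after the data had been seen. Over all kept cells, cycling cells held 7.95% to 20.9% of the Ezh2 UMIs, and their log2 ratio to other cells was 1.88, 2.17, 1.29 and 2.16.

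Other core members shared this pattern in part. Suz12 was at 152, 77.7, 183 and 90.2 CPM in cycling macrophages and 39.6, 30.0, 36.4 and 34.9 CPM in the others, and Rbbp7 was at 183, 124, 146 and 131 CPM against 26.4, 43.2, 47.0 and 44.1 CPM. The groups did not overlap for either gene, a separation that was not counted over all genes. The log2 ratio over the 4 libraries was 1.66 (1.29 to 2.02) for Suz12 and 1.76 (1.44 to 2.09) for Rbbp7. For Rbbp4 it was 0.82 (0.46 to 1.17) and for Mtf2 0.98 (0.36 to 1.56). Jarid2 went the other way, at 26.2, 68.4, 54.9 and 49.8 CPM in cycling macrophages against 93.6, 94.1, 98.4 and 75.1 CPM, a log2 ratio of −0.78 (−1.24 to −0.35). Taken by library, the Jarid2 interval excluded 0 in WT-ND alone (−3.50 to −0.55, from 5 UMIs in cycling cells). That of Mtf2 excluded 0 in SP-HFD alone (0.25 to 2.27), and that of Rbbp4 included 0 in WT-HFD alone (−0.11 to 1.28). Intervals included 0 for Ezh1 (−0.53, −1.59 to 0.38), Eed (−0.34, −1.02 to 0.29) and Aebp2 (0.21, −0.34 to 0.73). Of the 11 macrophage UMIs of Phf19, 7 were in cycling cells.

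**Figure D3:**
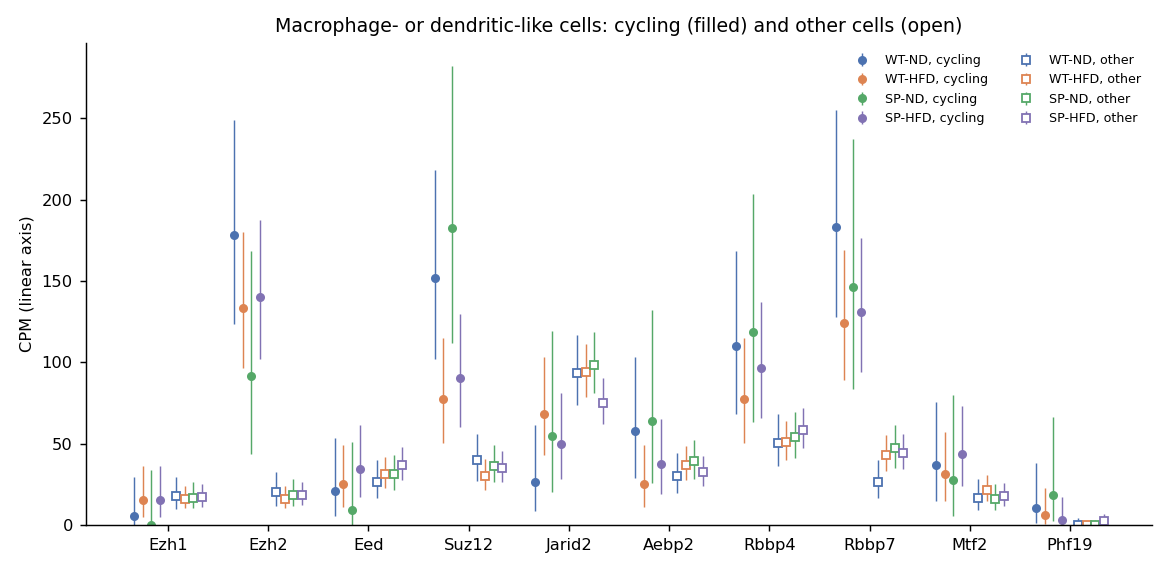
Levels of the 10 members in macrophage- or dendritic-like cells, in CPM on a linear axis, in cycling cells (filled points) and all other cells of the class (open points), by library with exact Poisson 95% intervals. Ezh2 is at 91.4 to 178 CPM in cycling cells and 16.0 to 20.4 CPM in the others, and Suz12 and Rbbp7 also separate, whereas Jarid2 is lower in the cycling cells.

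Outside cycling cells, macrophages no longer stood above type A intercalated cells. Ezh2 was at 16.0 to 20.4 CPM in macrophages (median 18.5) and 14.5 to 24.8 CPM in type A intercalated cells (median 20.8), which overlapped. T or NK cells remained at 17.6 to 39.9 CPM and proximal tubule cells at 3.34 to 4.79 CPM. The Ezh1 share in macrophages was then 46.9% in WT-ND, 50% in WT-HFD and 48.1% in SP-HFD.

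In proximal tubule cells, where SGLT2 is expressed, no member differed by 1.5-fold or more between conditions at the settings used. A member was compared where both libraries together held at least 30 UMIs, and 0 of 9 members were past 1.5-fold for WT-HFD to WT-ND, SP-HFD to SP-ND, SP-ND to WT-ND and SP-HFD to WT-HFD. Of all genes compared in the same cells, 17%, 19.4%, 9.5% and 6.76% were past it, in the same order. The median log2 ratio of the members was −0.17, −0.14, 0.12 and 0.07, beside 0.03, 0.03, 0.07 and 0.06 for all genes. With only cells under 30% mitochondrial UMIs (201 to 755 cells per library) the counts were 1, 3, 0 and 1, and adding clusters with proximal tubule markers, or the unnamed WT-HFD cluster described below, put Jarid2 past it for SP-HFD to WT-HFD (0.71 and 0.61). The 4 comparisons share libraries in pairs, so that none of them is independent of the others.

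Of the catalytic genes in the proximal tubule, Ezh1 was lower in both HFD libraries than in the ND library of the same genotype. From the levels given above, the log2 ratio was −0.42 (95% interval −0.65 to −0.20) in WT and −0.48 (−0.80 to −0.15) in SP. Ezh2 differed by −0.17 and −0.14 in the same comparisons, and its intervals included 0, as they did between genotypes. Under 30% mitochondrial UMIs, where 33, 19, 10 and 21 Ezh2 UMIs remained in the 4 libraries, the SP value turned to 0.71 and SP-HFD to WT-HFD moved from 0.07 to 1.05. For the scaffold Suz12 the ratio was −0.34 (−0.52 to −0.16) with diet in WT and −0.19 (−0.41 to 0.02) in SP. Between genotypes, Suz12 was higher in SP on ND, by 0.25 (0.09 to 0.42), and on HFD, by 0.40 (0.17 to 0.62). Depth per proximal tubule cell, as median UMIs, was 8964.5, 9477.5, 15035 and 14469 in the 4 libraries, higher for both SP libraries. How far depth shaped the genotype ratios of this class, here and below, was not tested. Eed ratios ran from −0.12 to 0.12, and each interval included 0.

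Jarid2 was the member with a ratio above 0 and an interval off 0 in all 4 comparisons of proximal tubule cells. How many of all genes meet the same rule was not counted. The Jarid2 level ran from 22.9 CPM in WT-ND through 26.4 and 30.1 CPM in WT-HFD and SP-ND to 38.5 CPM in SP-HFD. With diet the ratio was 0.21 (0.01 to 0.40) for WT mice and 0.36 (0.13 to 0.58) for SP mice, and between genotypes it was 0.39 (0.19 to 0.59) on ND and 0.54 (0.32 to 0.76) on HFD. The WT diet interval began just above 0, where the median of all genes was 0.03. The unnamed WT-HFD cluster described below, with Jarid2 at 22.9 CPM, is outside this class. The library order was not particular to this class. An unnamed cluster of 3174 cells (median 934 UMIs) held Jarid2 at 37.3, 43.6, 77.7 and 121 CPM in the 4 libraries. Aebp2 is the PRC2 subunit that the study reported as higher in SP-HFD than in WT-HFD, after looking at several subunits. The study gave it as RNA in proximal tubule cells and as protein in renal cortex. It also reported less Aebp2 RNA in PT-HFD, a proximal tubule subcluster that it found mostly in WT-HFD. The proximal tubule class here leaves out the unnamed WT-HFD cluster (Aebp2 at 22.9 CPM), so the sets of cells may differ from those of the study. Whether that cluster matches PT-HFD was not tested. The Aebp2 RNA here comes from the same libraries, so its value is no independent evidence, and protein was not measured in them. Its level was 31.3 CPM in WT-ND, 26.0 CPM in WT-HFD, 31.0 CPM in SP-ND and 30.6 CPM in SP-HFD, with the WT-HFD library below the other 3. The Aebp2 ratio was −0.27 (−0.45 to −0.09) for WT-HFD to WT-ND, −0.02 (−0.26 to 0.22) for SP-HFD to SP-ND, −0.01 (−0.20 to 0.17) for SP-ND to WT-ND and 0.24 (−0.00 to 0.47) for SP-HFD to WT-HFD. Whether the diet ratio differs by genotype could not be tested with 1 library per condition, and the 2 intervals overlap. Mtf2 had a log2 ratio of HFD to ND of −0.45 (−0.75 to −0.15) in WT and −0.38 (−0.77 to 0.00) in SP. Rbbp4 and Rbbp7 were higher in SP-ND than in WT-ND, by 0.30 (0.15 to 0.45) and 0.23 (0.09 to 0.37), and differed by −0.02 and 0.05 between the HFD libraries.

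**Figure D4:**
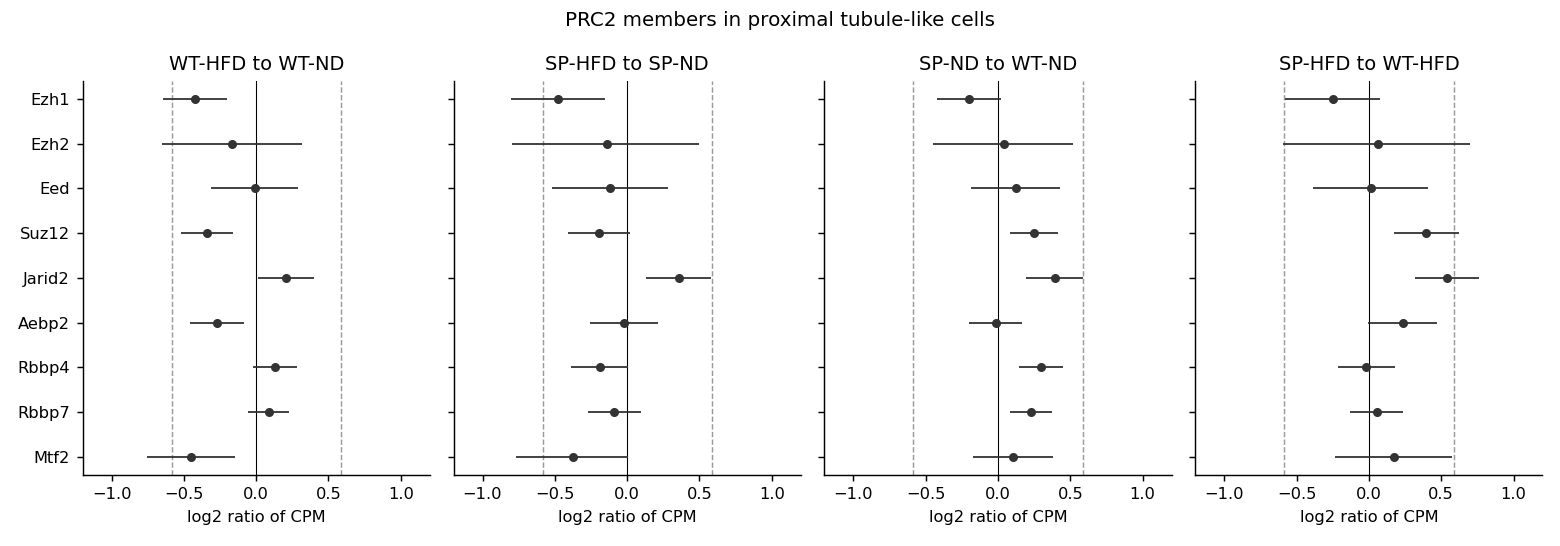
Log2 ratio of CPM of 9 members in proximal tubule-like cells for the 4 comparisons, with exact 95% intervals of counting error. Dashed lines mark 1.5-fold, which no point passes, and Jarid2 lies above 0 in each panel (0.21 to 0.54).

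A cluster of 964 cells that met no class name came almost wholly from WT-HFD (960 cells) and was led by Hsd11b1, Ccl28 and Dnase1. Its marker score, a mean log2 ratio to all other cells, was 0.40 for thin limb and 0.37 for proximal tubule, where a name needed 1. It held the proximal tubule marker Lrp2 at 367 CPM. Against the proximal tubule cells of the same library, its log2 ratio was −0.18 (−0.44 to 0.07) for Aebp2, −0.21 (−0.47 to 0.05) for Jarid2, −0.01 for Ezh1, −0.39 (−0.65 to −0.13) for Suz12 and 0.20 (0.03 to 0.37) for Rbbp7. Against thick ascending limb cells, whose marker Umod was at 1706 CPM in it, the ratio was −0.63 (−0.91 to −0.36) for Aebp2, −0.17 (−0.46 to 0.13) for Jarid2, −0.47 (−0.79 to −0.15) for Ezh1, −0.71 (−0.99 to −0.42) for Suz12 and −0.33 (−0.51 to −0.15) for Rbbp7. Suz12 was thus lower than in either class, and the direction of Rbbp7 depended on the class set beside it. Umod was also at 1424 CPM in the WT-HFD cells of another unnamed cluster.

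Over all 13 classes, members passed 1.5-fold in a smaller share of comparisons than genes in general. For WT-HFD to WT-ND, 12 of 111 pairs of member and class (10.8%) were past it, 11 of them lower in HFD, beside 19.3% of all pairs of gene and class. For SP-HFD to SP-ND the share was 4 of 111 (3.60%) beside 14.9%, for SP-ND to WT-ND 7 of 109 (6.42%) beside 12.1%, and for SP-HFD to WT-HFD 9 of 114 (7.89%) beside 14.8%. Below 0 were 72 of 111 member pairs with diet in WT and 64 of 111 in SP, and above 0 were 61 of 109 pairs for SP against WT on ND and 74 of 114 on HFD. Pairs from the same library are not independent of each other. The shares for all genes cover every gene with at least 30 UMIs in both libraries together. They were not matched to the members for UMI depth, and its part in the lower shares was not tested.

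Ezh1, Ezh2 and Suz12 were below 0 with diet in most classes, as was the median of all genes in 9 of 13 classes in WT (3 of 13 in SP). Ezh1 was below 0 in 10 of 12 classes for WT-HFD to WT-ND and in 9 of 12 for SP-HFD to SP-ND, Ezh2 in 8 of 9 and 7 of 10, and Suz12 in 11 of 13 and 9 of 13. The core member Eed was above 0 with diet in most classes, in 8 of 12 in WT and 7 of 11 in SP. Rbbp4 was above 0 in 4 of 13 and 7 of 13, and Rbbp7 in 5 of 13 and 8 of 13. Aebp2 was below 0 with diet in 7 of 13 classes in WT and 11 of 13 in SP, and none of these passed 1.5-fold. Rbbp7 was higher in SP-HFD than in WT-HFD in 12 of 13 classes, with a median of 0.15, and the median of all genes was above 0 in 11 of the 13.

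Ezh2 passed 1.5-fold with diet in 3 segments of the WT tubule. It was at 14.2 CPM (43 UMIs) in the distal convoluted tubule cells of WT-ND and at 7.49 CPM (24 UMIs) in those of WT-HFD, a log2 ratio of −0.92 (−1.71 to −0.17). Principal cells had 15.4 CPM (45 UMIs) and 8.23 CPM (23 UMIs), a ratio of −0.91 (−1.70 to −0.15). The larger principal cell cluster (1663 cells) had a marker score of 3.75 for principal cells and 3.77 for urothelial cells. At a resolution of 1.0, 53 urothelial-like cells formed a cluster of their own, and the part of such cells in the principal class was not tested. In thick ascending limb cells the values were 14.6 CPM (94 UMIs) and 9.59 CPM (75 UMIs), a ratio of −0.60 (−1.06 to −0.15). Each was 1 of 9 members past the fold in its class, beside 13.7%, 19.3% and 10.2% of all genes. For SP-HFD to SP-ND, Ezh2 was at −0.58 (−1.35 to 0.18) in distal convoluted tubule cells, just inside 1.5-fold, at −0.36 in principal cells and at −0.23 in thick ascending limb cells, and the difference between genotypes was not tested. In type A intercalated cells Ezh1 was at 42.5 CPM in WT-ND and 26.99 CPM in WT-HFD, −0.66 (−1.14 to −0.18), in a class where 18.2% of all genes were past the fold. Median UMIs per cell in WT-ND and WT-HFD were 6654 and 12467.5 in type A intercalated cells and 5310 and 9438 in distal convoluted tubule cells. The part of depth in these ratios was not tested. Without integration, an unnamed cluster of 2904 cells held 2870 cells of WT-HFD. Which named classes those cells belonged to with integration was not tested.

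**Figure D5:**
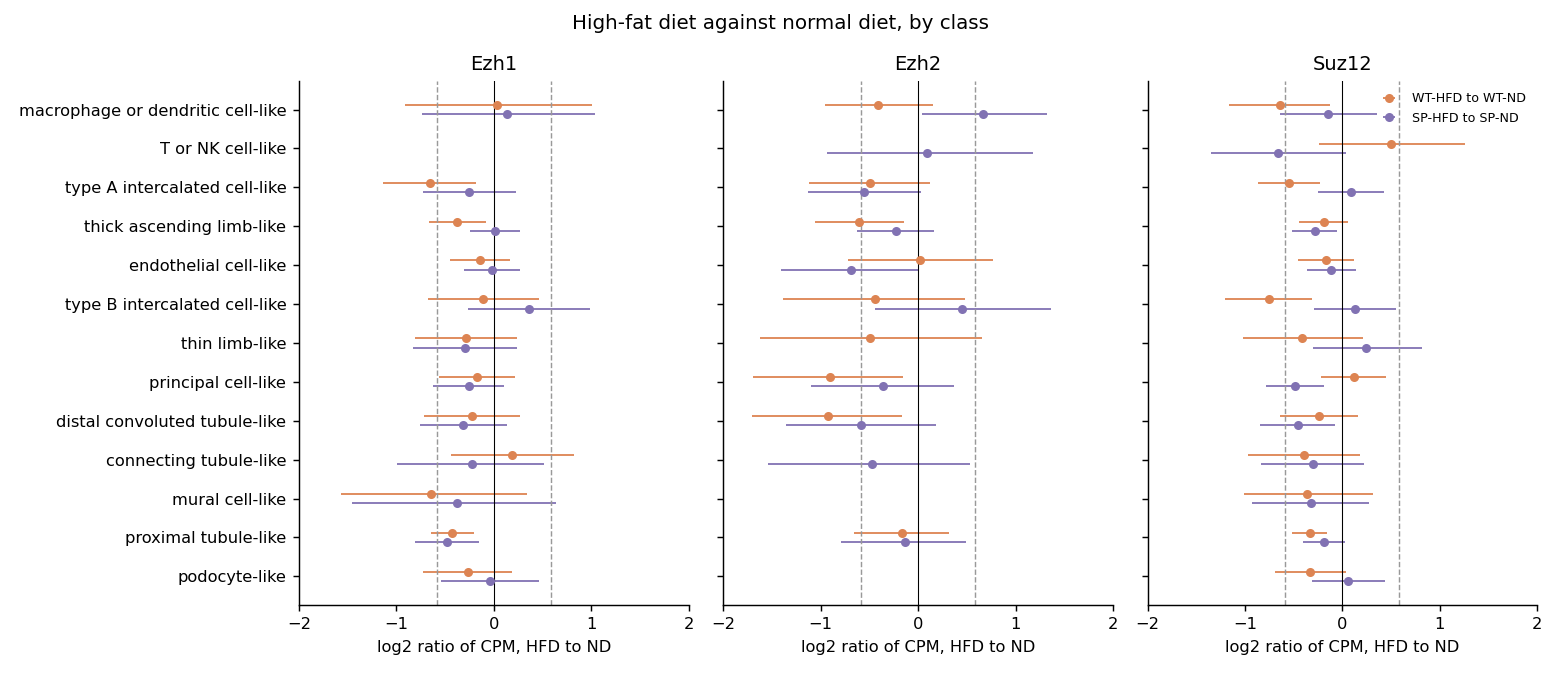
Log2 ratio of HFD to ND for Ezh1, Ezh2 and Suz12 by cell class, in WT (orange) and SP (purple), with exact 95% intervals of counting error and dashed lines at 1.5-fold. Classes with fewer than 30 UMIs in both libraries together are left out. Most points lie below 0, among them Ezh2 in distal convoluted tubule (−0.92), principal (−0.91) and thick ascending limb cells (−0.60) of WT.

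Both ratios of macrophage Ezh2 compared here that hold the SP-ND library were smaller in size with cycling cells set aside. That left 28, 21 and 17 Ezh2 UMIs in SP-HFD, SP-ND and WT-ND, and the intervals still held the ratios of all macrophages. The log2 ratio was 0.66 (0.04 to 1.32) for SP-HFD to SP-ND and −0.99 (−1.68 to −0.32) for SP-ND to WT-ND, and −0.01 (−0.88 to 0.88) and −0.13 (−1.12 to 0.88) without cycling cells. The SP-ND library, with the lowest share of cycling macrophages (5.6%), is in both comparisons, and the part of cycling cells in these ratios was not tested. Suz12 in macrophages was at 60.5 CPM in WT-ND and 38.7 CPM in WT-HFD (−0.65, −1.16 to −0.13). Of all genes in macrophages, 18.4% were past 1.5-fold for SP-HFD to SP-ND, 21% for SP-ND to WT-ND and 22.5% for WT-HFD to WT-ND.

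Type B intercalated cell-like cells, the bicarbonate-secreting cells of the collecting duct, had members past 1.5-fold, in a class where many other genes were past it too. For WT-HFD to WT-ND, 3 of 9 were lower, beside 22% of all genes in that class, and for SP-HFD to WT-HFD 3 of 9 were higher, beside 24.8%. Suz12 was at 48.9 CPM in WT-ND and 29.0 CPM in WT-HFD (−0.75, −1.21 to −0.31) and at 54.5 CPM in SP-HFD (0.91, 0.46 to 1.37). Mtf2 was at 28.7, 16.7 and 26.4 CPM in the same libraries, and the other members past the fold were Jarid2 (−0.59 with diet in WT) and Ezh2 (0.85, −0.05 to 1.77, between the HFD libraries). Both comparisons hold the WT-HFD library, whose cells of this class had a median of 4366 UMIs against 8473 to 14881 in the other libraries. Without integration the type A and type B cells shared 1 cluster, which held 282 WT-HFD cells, whereas 198 type A and 377 type B cells of that library had been named with integration. The type B ratios could not be taken without integration, and type A ratios would then include type B cells.

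In mural cell-like cells, 5 of 8 members were past 1.5-fold for SP-HFD to WT-HFD, beside 50% of all genes in that class. Rbbp7 was at 120 CPM in SP-HFD and 65.3 CPM in WT-HFD (0.87, 0.46 to 1.28), Suz12 at 55.03 and 33.2 CPM and Rbbp4 at 81.2 and 53.3 CPM. Jarid2 was at 15.1 and 27.1 CPM, with an interval that included 0. Mitochondrial genes made up 25.3% of the mural UMIs in WT-HFD and 12.4% to 15.2% in the other libraries, and the part of this in the ratios was not tested. At a resolution of 1.0 the mural cells fell into 2 clusters, and the one without mural markers among its leading genes (median 27.4% mitochondrial UMIs) held 274 of the WT-HFD cells and 43 of those of SP-HFD.

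Single members passed 1.5-fold with an interval off 0 in other classes too, where they were 1 of 8 or 1 of 9 members compared. Eed was at 15.4 CPM in the endothelial cells of WT-ND and 24.7 CPM in those of WT-HFD (0.68, 0.13 to 1.25), beside 12.7% of all genes past the fold. Jarid2 was at 86.2 and 57.3 CPM in the connecting tubule cells of WT-ND and WT-HFD (−0.59, −0.96 to −0.22), beside 21.2% of all genes. The connecting tubule cluster held 383 WT-HFD cells with integration and 240 without it. The part of this in the Jarid2 ratio was not tested. Suz12 was higher in SP-HFD than in WT-HFD in thin limb cells (0.76, 0.24 to 1.28, beside 18.3% of all genes) and lower in SP-ND than in WT-ND in type A intercalated cells (−0.59, −0.93 to −0.25, beside 12% of all genes).

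Pooled over all kept cells, 0 of 9 members were past 1.5-fold in each comparison, beside 14%, 15.1%, 13% and 14% of all genes for WT-HFD to WT-ND, SP-HFD to SP-ND, SP-ND to WT-ND and SP-HFD to WT-HFD. All 9 were higher in SP-HFD than in WT-HFD, by 0.13 to 0.37 on the log2 scale, where the median of all genes was also above 0, at 0.20. These pooled values mix the composition of a library with levels inside its classes.

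Other Polycomb genes were read from fixed lists in the same proximal tubule cells, for WT-HFD to WT-ND, SP-HFD to SP-ND, SP-ND to WT-ND and SP-HFD to WT-HFD in turn. Of all genes compared in these cells, 17%, 19.4%, 9.5% and 6.76% were past 1.5-fold. Of the other PRC2 partners 1 of 6, 0 of 5, 1 of 6 and 0 of 5 were past 1.5-fold, with list medians of −0.11, −0.13, 0.22 and −0.01. The partner past it was Epop, a PRC2.1 partner that also binds elongin, with 28, 4, 29 and 0 UMIs in the 4 libraries (1.36, 0.269, 2.25 and 0 CPM, where 0 UMIs allow up to 0.390 CPM). Epop thus had few UMIs in both HFD libraries. Its log2 ratio was −2.33 (−4.31 to −0.82) with diet in WT, while the SP pair stayed under the minimum of 30 UMIs. The WT pair met that minimum through WT-ND, where Epop was higher, and a gene as low in both libraries would not have been compared.

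Of the H3K27 demethylases, which remove the mark, neither Kdm6a nor Kdm6b was past 1.5-fold in any of the 4 comparisons, with list medians of −0.27, −0.04, −0.02 and 0.21. Kdm6a had a log2 ratio of −0.56 (−0.86 to −0.26) with diet in WT. Of PRC1, the ubiquitin ligase complex that works beside PRC2, 0 of 20, 3 of 19, 2 of 20 and 2 of 19 genes were past the fold, with list medians of −0.01, −0.20, 0.03 and 0.04. The shares over all genes were 17%, 19.4%, 9.5% and 6.76%, in the same order. Scmh1 was higher and Phc1 and Kdm2b were lower with diet in SP. Bmi1, a PRC1 subunit, was at −0.46 (−0.67 to −0.25) with diet in WT and −0.52 (−0.79 to −0.25) in SP. Of the 4 genes of PR-DUB, the complex that removes ubiquitin from histone H2A, Asxl3 alone was past the fold, with diet, at −1.24 (−1.76 to −0.75) in WT and −0.66 (−1.30 to −0.06) in SP. The shares over all genes with diet were 17% in WT and 19.4% in SP.

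Of the 18 cell-cycle genes listed, 7 were compared with diet in proximal tubule cells of WT and 5 in those of SP. In each genotype 3 of them were past 1.5-fold and higher with diet, beside 17% and 19.4% of all genes. A gene near the minimum of 30 UMIs can pass it through the library where it is higher. In the comparisons of genotypes 0 of 5 were past the fold, beside 9.5% of all genes on ND and 6.76% on HFD. Tyms, which makes thymidylate for DNA synthesis, was at 7.17, 14.3, 8.68 and 16.4 CPM in the 4 libraries, and Tk1, of the salvage route, at 4.75, 8.14, 4.11 and 7.42 CPM. Both were higher in the HFD library of each genotype.

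Across the 52 pairs of class and library, the members followed different genes. The measure of likeness was Pearson's r of log2(CPM + 10) over 10946 genes, and points from one library or class share depth and cells, so r is a description without a p. Ezh2 was most like Ptpn18 (0.88), Hmgb2 (0.87) and Ssh2 (0.85), and among the genes most like Ezh1 were Nfat5 (0.85) and Tusc3 (0.83). Suz12 was most like Ankrd11 (0.87), Nipbl (0.86) and Yy1 (0.86), and among those most like Eed were the ribosomal protein genes Rps9 (0.91) and Rpl23 (0.91). Aebp2 was most like Gimap8 (0.91), Gimap1os (0.91) and Gbp4 (0.90), Mtf2 like Mta2, Kif2a and Pacs1 (each 0.85), and Jarid2 like Dock8 (0.70), Arl4c (0.69) and Kdm7a (0.62). Rbbp4 was most like Bcas2 (0.94), Serbp1 (0.91) and Dnajb6 (0.91), and Rbbp7 like Tmem98 (0.89), Atxn7l3b (0.87) and Atp8b1 (0.86). Among the members, Suz12 and Mtf2 were most alike (0.77), followed by Suz12 and Rbbp4 (0.72) and Mtf2 and Rbbp4 (0.71), while r was 0.65 for Ezh2 and Eed and −0.25 for Ezh1 and Ezh2.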

How the data were processed

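Single-cell RNA-Seq of 4 whole kidney libraries, 1 library per condition, was analysed. The authors aligned reads to mm10 with Cell Ranger (2.1.1 in the submitters' processing notes, 6.1.2 in the matrix headers) and deposited UMI counts per gene and barcode, with no normalization. Strand use in counting is not given in the sources used here.

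The limits on cells were 200 to 5000 genes and less than 50% of UMIs from mitochondrial genes. Doublets were scored per library against simulated ones and taken out at 0.8% per 1000 cells. Cells were integrated (CCA, 2000 features, 50 dimensions) and clustered at a resolution of 0.5 with Seurat 5.3.0 (R 4.3.3, Matrix 1.6.5, SeuratObject 5.2.0). Clustering used no member, Polycomb or cell-cycle gene. Clusters were named from marker lists, and thresholds for naming were set with the clusters in view. In all, 5500 cells stayed unnamed. The rest used scipy 1.17.1, numpy 2.4.6, pandas 2.3.3, scikit-learn 1.9.0 and matplotlib 3.10.9 under Python 3.11.15.

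UMIs were pooled per class and library and printed in CPM, each with its exact Poisson 95% interval. Log2 ratios have exact intervals from the conditional binomial, for genes with at least 30 UMIs in both libraries together. A count of 0 allows a level of up to 3 counts. Self-tests ran on simulated data. The named genes are the 10 members, 5 lists (other PRC2 partners, H3K27 demethylases, PRC1, PR-DUB, cell-cycle genes) and the 3 most alike genes of each member, of which some are not reported here. Members and lists were chosen with earlier results of these data known. Genes of the clusters named after their values were seen are Hsd11b1, Ccl28, Dnase1, Cd209a and Xcr1. Promoters came from RefSeq GRCm38.p6 and gene coordinates from the GRCm38 annotation.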

Additional observations from a re-analysis of the deposited data

How the results depend on the processing

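No paired analysis was possible because each condition holds 1 library. In proximal tubule cells, 432 alternative ratios were computed, of which 427 stayed inside the interval of the printed value and 5 moved out of it. The sign changed in 28 of them, none in a ratio whose interval excluded 0, and 27 of the 28 were below 0.3 in size. The other was Ezh2 for SP-HFD to SP-ND (−0.14, and 0.71 under 30% mitochondrial UMIs). All 5 that moved came from the limit of 30% mitochondrial UMIs, which left 755 of 2054, 550 of 1114, 201 of 897 and 222 of 537 cells of the WT-ND, WT-HFD, SP-ND, SP-HFD libraries. Under it, the count of members past 1.5-fold was 1 for WT-HFD to WT-ND (Mtf2, −0.61), 3 for SP-HFD to SP-ND (Ezh1 −0.64, Ezh2 0.71, Mtf2 −0.85) and 1 for SP-HFD to WT-HFD (Ezh2, 1.05). Over nuclear-encoded UMIs it was 1 for SP-HFD to SP-ND (Ezh1, −0.59). It was 1 for SP-HFD to WT-HFD with clusters that carry proximal tubule markers added (Jarid2, 0.71), and 1 with the unnamed WT-HFD cluster added (Jarid2, 0.61), an alternative chosen after seeing the data.

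Without cycling cells, macrophage Ezh2 was at 20.4 CPM in WT-ND, 16.0 in WT-HFD and 18.4 in SP-HFD, the Ezh1 share was 46.9%, 50% and 48.1% in the same libraries, the Ezh2 ratio was −0.014 for SP-HFD to SP-ND (reversed) and −0.13 for SP-ND to WT-ND, the fold of macrophage to proximal tubule Ezh2 was 4.66 and that of endothelial to macrophage Ezh1 was 3.36. As a mean over cells, macrophage Ezh2 was at 26.6 in WT-HFD, the thick ascending limb Ezh2 ratio with diet in WT was −1.10 (−1.40 under 30% mitochondrial UMIs), the Ezh1 fold was 3.12 and the podocyte to proximal tubule Rbbp7 fold was 2.83. With 10% of the ambient profile subtracted, the Ezh2, Ezh1 and Rbbp7 folds were 11.005, 4.15 and 3.72. Over nuclear-encoded UMIs the Rbbp7 fold was 2.49 and the T or NK cell to proximal tubule Aebp2 fold 2.11. Beyond the effect of leaving out the cycling cells, the cause of these shifts was not tested. The cycling Ezh2 ratio was 3.25, 3.30, 3.32 and 3.17 when 5 cell-cycle genes were required, also chosen after seeing the data. Depth limits Ezh2 in podocytes and Phf19 in every class.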
